A study of Mus musculus with 6 samples.

Results

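The fibroblast growth factor (FGF) pathway was examined in cultured mouse tendon stem/progenitor cells through 10 genes: the ligand genes Fgf2, Fgf7, Fgf10 and Fgf18, the receptor genes Fgfr1, Fgfr2, Fgfr3 and Fgfrl1, and the feedback inhibitor genes Spry2 and Spry4. They were taken by name from a table of 15711 genes, and all 10 were found in it. Cells carried a Cre recombinase driven by the collagen gene Col1a1 together with a YFP reporter (Col1α1-Cre;YFP). Flow cytometry separated them into Col1α1+Vldlr+ and Col1α1+Vldlr- cells, which were kept in DMEM with fetal bovine serum before RNA was sequenced. There were 3 libraries of each population, called here labelled-positive and labelled-negative. The genotype label carries a different digit after Col1α in each library and was read as 1 genotype. A Col1a1 promoter is active in many collagen-producing cells, so the reporter does not by itself mark tendon cells. The labels give neither age, sex nor the number of animals, and do not say whether libraries of a population came from separate cultures. The p-values therefore measure the spread between these libraries, which may be technical.

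FGF ligands are secreted proteins that bind receptor tyrosine kinases together with heparan sulfate chains on the cell surface. The active receptor recruits the adaptor FRS2 and switches on the Ras-ERK cascade, and among the genes induced are inhibitors of the same cascade, such as the Sprouty, Spred and Dusp families. In limb and tendon development FGF signals act on the progenitors that express the tendon factor Scx.

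Levels are given in RPKM (reads for each kilobase of exon, divided by the effective size of the library), which puts genes of different length on a common scale. The length used is that of all annotated exons of a gene merged, which can exceed that of a single transcript. Orders, shares and ratios between genes depend on this length. Reads per gene could be worked out from the RPKM values. Summed over the 15690 listed genes that gave whole reads, they came to 17659458 to 17718941 in labelled-positive and 17280452 to 17348666 in labelled-negative libraries. Reads outside these genes are not in the sums. Labelled-positive replicate 1 stood apart from its group, with a chi-square per gene of 16.9 and 14.4 against replicates 2 and 3, while the other pairs within a group gave 2.55 to 6.14. Vldlr, the sort marker, was listed at 4.73, 3.97 and 3.70 RPKM in labelled-positive libraries, against 0.961, 0.959 and 0.467 RPKM in labelled-negative ones. Among the 15691 genes with a known exon length, these 3 labelled-negative values were the only ones not equal to whole reads. They became whole when 5 RPKM was added to each. With it they would stand at 5.96, 5.96 and 5.47 RPKM, above every labelled-positive library and against the labels, so no direction was drawn from Vldlr. All 11 fibroblast and tendon identity markers were above the detection filter described next, with Col1a1 at 3027 RPKM in labelled-positive and 1789 RPKM in labelled-negative libraries and Fmod at 3152 RPKM in labelled-positive and 288 RPKM in labelled-negative ones. Of the 11, 8 rose and 3 fell in the test described next, where 29.7% of all genes were called higher and 26.1% lower, and 5 rose with total-read scaling. The 3 that fell, named with their values in view, were Col3a1, Pdgfra and the tendon membrane protein gene Tnmd, which was at 6.88 RPKM in labelled-positive and 27.2 RPKM in labelled-negative libraries.

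Markers of other cell types differed too. Macrophage markers summed to 25.7 to 33.0 RPKM in labelled-positive and 511 to 621 RPKM in labelled-negative libraries. Most of that was Lyz2, at 27.4 RPKM in labelled-positive and 430 RPKM in labelled-negative libraries, while Ctss was at 0.0739 RPKM in labelled-positive and 35.9 RPKM in labelled-negative libraries. Of the 7 macrophage markers tested, 5 were under 1 RPKM in every labelled-positive library and passed the filter through the labelled-negative group alone, so a difference was built into their being tested. Among these 5, Tyrobp, named with its values in view, was at 0 in the labelled-positive group. Schwann cell markers summed to 99.1 to 108 RPKM in labelled-positive and 20.0 to 21.8 RPKM in labelled-negative libraries, carried by Ngfr at 72.2 RPKM in labelled-positive and 4.98 RPKM in labelled-negative libraries. S100b went the other way, at 4.50 RPKM in labelled-positive and 15.4 RPKM in labelled-negative libraries (limma adjusted p = 3.7e-06), and 3 of the 5 Schwann markers tested passed the filter through the labelled-positive group alone. Endothelial markers summed to 13.0 to 13.9 RPKM in labelled-positive and 3.39 to 4.02 RPKM in labelled-negative libraries. Cdh5 was at 5.07 RPKM in labelled-positive and 0 RPKM in labelled-negative libraries and Emcn at 4.20 RPKM in labelled-positive and 0.0165 RPKM in labelled-negative libraries, while Tek, named with its values in view, was at 0.496 RPKM in labelled-positive and 3.52 RPKM in labelled-negative libraries. All 4 endothelial markers tested passed the filter through 1 group alone, 3 of them the labelled-positive group. Chondrocyte markers summed to 14.5 to 16.1 RPKM in labelled-positive and 10.8 to 10.9 RPKM in labelled-negative libraries, nearly all of it Sox9 at 13.8 RPKM in labelled-positive and 9.45 RPKM in labelled-negative libraries. The cartilage collagen genes Col2a1 and Col9a1, the second named with its values in view, ran the other way without overlap, at 0.573 and 0.0517 RPKM in labelled-positive and 1.12 and 0.272 RPKM in labelled-negative libraries, and were not tested. Acan and Matn3, named with their values in view, went with Sox9 without overlap and were not tested either. They were at 0.852 and 0.234 RPKM in labelled-positive and 0.0264 and 0.0416 RPKM in labelled-negative libraries. None of 5 epithelial markers was listed in the table, and of 5 muscle markers Des alone was listed, at 0.275 to 0.449 RPKM in labelled-positive and 0.558 to 0.630 RPKM in labelled-negative libraries. The part of these other cell types in the values below was not tested. In bulk RNA, fewer cells that express a gene and less of its RNA per cell cannot be told apart.

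Most of the 10 FGF genes were lower in the labelled-positive cells. Of the 10 genes, 7 fell, 1 rose and 2 did not pass the test. All 10 were among the 12116 genes with at least 1 RPKM in 3 or more libraries, which were tested with limma on log2(RPKM + 1) and called at an adjusted p (Benjamini-Hochberg over all genes tested) under 0.05. Of all genes tested, 55.9% were called, 29.7% higher and 26.1% lower, so that a call alone was common. The median log2 fold change of the 10 genes was -0.44, against 0.02 for all genes tested. The 10 were chosen with earlier results of these data known, so this median and the counts here describe the 10 alone. The groups did not overlap for 8 of the 10 genes, 7 of them lower and 1 higher in the labelled-positive libraries. Of all genes tested 62.9% did not overlap, 29.5% lower and 33.5% higher. Against a change of at least 1.5-fold, only Fgf10 and Spry2 of the 10 passed, both lower. Of all genes tested 9.43% passed it, 5.00% lower and 4.43% higher. When libraries were scaled by total reads only, the median shift over all genes was -0.17 in log2 fold change, which gave 1875 genes higher and 5546 lower, against 3602 and 3167. Under that scaling 9 of the 10 genes were lower and 1 higher, and none changed direction.

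**Figure D1:**
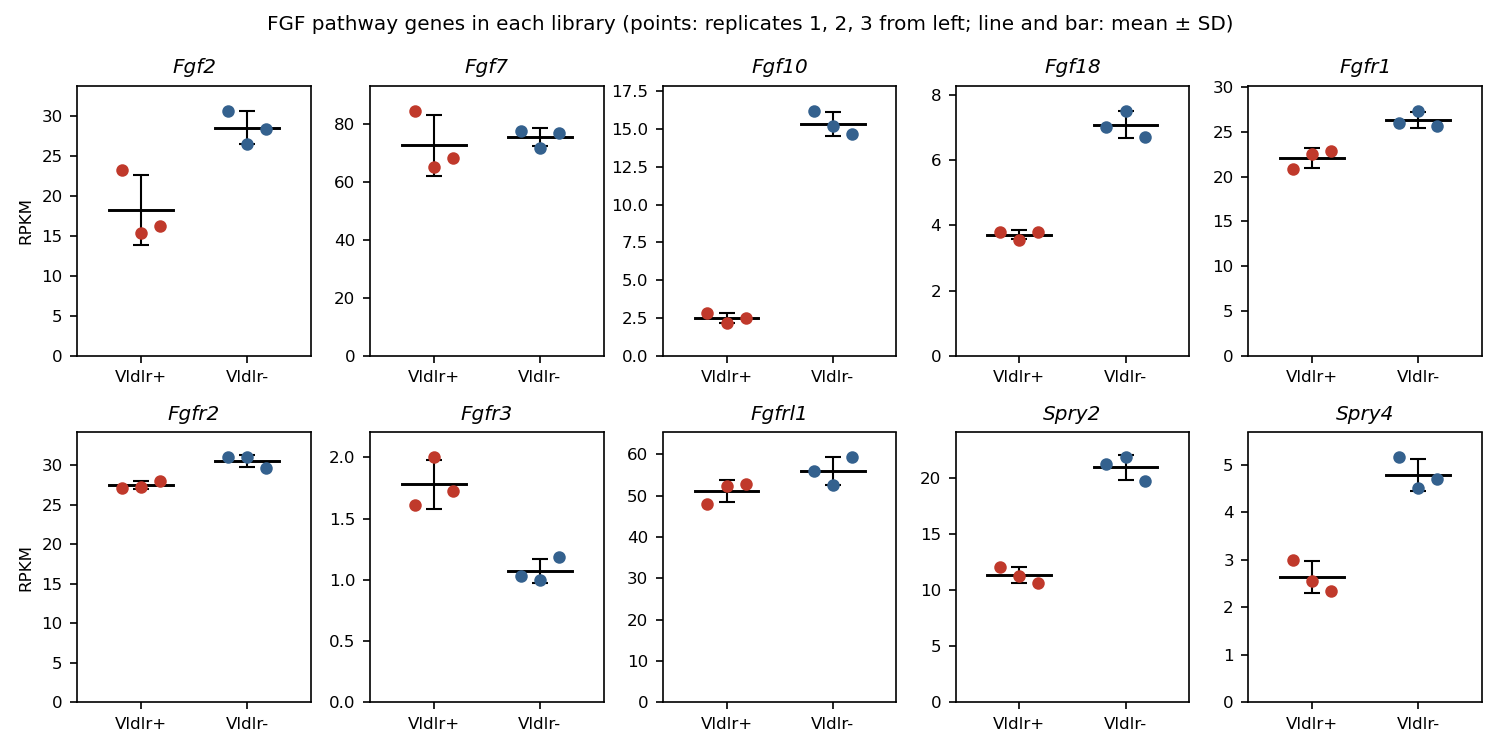
RPKM (y axis, from 0) of each of the 10 genes in the 3 libraries labelled Vldlr+ (red) and the 3 labelled Vldlr- (blue), with the mean and SD as black lines. Fgf10, Fgf18, Spry2 and Spry4 are separated by wide gaps with the labelled-positive libraries below, Fgfr3 has them above, and the points of Fgf7 and Fgfrl1 overlap.

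**Figure D2:**
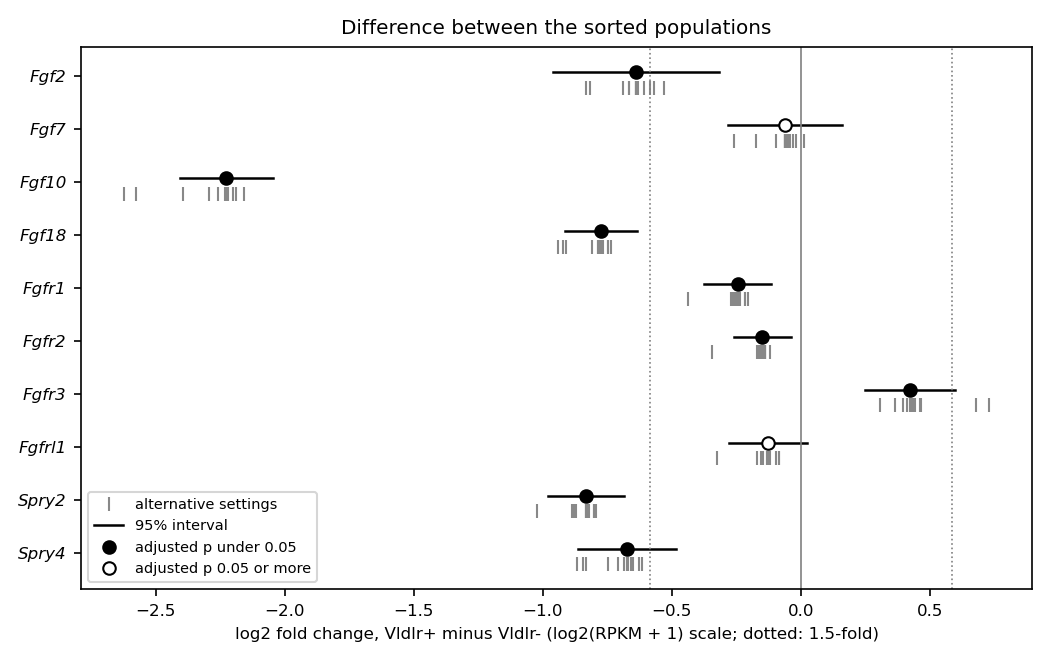
The log2 fold change of each gene (labelled-positive minus labelled-negative, log2(RPKM + 1) scale), with its 95% interval as a bar and grey ticks for the alternative settings. Fgf10 lies farthest from 0, at -2.23, and the filled points mark the 8 genes that passed the test.

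Fgf10 and Fgf7 encode paralogous ligands that mesenchymal cells secrete and that bind the IIIb splice form of FGFR2 on epithelial cells. They behaved differently here. Their promoter windows are shown because the pair shares a receptor but not a response, and that of Fgf5 is added because this gene, described further on, moved the other way. Each window is the RefSeq sequence of build GRCm38.p6 from 250 bases before to 50 bases after the annotated start, on the strand of the gene. Capitals mark matches on either strand to 5 motifs: the ETS motif is CCGGAA, the AP-1 motif is TGAGTCA, the cyclic AMP response element (CRE) is TGACGTCA, the TATA motif is TATAAA, and the GC box is GGGCGG. Windows lie at chr13:118714449-118714748 (plus strand) for Fgf10, chr2:126034408-126034707 (plus strand) for Fgf7 and chr5:98253934-98254233 (plus strand) for Fgf5.
Fgf10: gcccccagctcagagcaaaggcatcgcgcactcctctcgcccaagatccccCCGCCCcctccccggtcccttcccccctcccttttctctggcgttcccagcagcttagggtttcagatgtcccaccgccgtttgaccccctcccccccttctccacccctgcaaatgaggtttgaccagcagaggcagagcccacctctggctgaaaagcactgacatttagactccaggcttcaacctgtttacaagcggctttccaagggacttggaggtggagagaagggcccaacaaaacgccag
Fgf7: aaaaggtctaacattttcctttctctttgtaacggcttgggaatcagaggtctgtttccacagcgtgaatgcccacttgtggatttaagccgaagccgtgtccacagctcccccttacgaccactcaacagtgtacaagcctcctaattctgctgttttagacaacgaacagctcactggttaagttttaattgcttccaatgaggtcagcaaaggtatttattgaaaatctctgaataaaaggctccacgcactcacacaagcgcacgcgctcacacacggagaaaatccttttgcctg
Fgf5: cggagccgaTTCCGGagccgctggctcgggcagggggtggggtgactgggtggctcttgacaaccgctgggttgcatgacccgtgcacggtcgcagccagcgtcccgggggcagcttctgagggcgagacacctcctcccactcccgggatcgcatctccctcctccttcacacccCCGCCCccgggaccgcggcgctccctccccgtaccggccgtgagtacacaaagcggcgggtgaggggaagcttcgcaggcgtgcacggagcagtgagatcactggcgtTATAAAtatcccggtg
The Fgf10 window held a GC box 199 bases before the start. That start lies inside the span of the gene given below, not at its first base. The Fgf5 window held an ETS motif 241 bases and a GC box 74 bases before the start, and a TATA motif 34 bases after it. None of the 5 motifs was found in the Fgf7 window, which says only that these letters are not in it. No match overlapped another. Among all 32851 RefSeq windows of this length, 14.9% held the ETS motif, 5.20% the AP-1 motif, 1.79% the CRE, 13.6% the TATA motif and 35.7% the GC box. G and C made up 60.7% of the Fgf10 window, 45.7% of the Fgf7 window and 68.3% of the Fgf5 window, against a median of 52.7% over all windows.

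Fgf10 (chromosome 13, 118669791 to 118792115, GRCm38, plus strand) had 2.83, 2.17 and 2.50 RPKM in labelled-positive replicates 1 to 3, against 16.2, 15.2 and 14.6 RPKM in labelled-negative replicates 1 to 3. Every labelled-positive library was far below every labelled-negative one. Its mean was 2.50 ± 0.327 RPKM in labelled-positive and 15.4 ± 0.798 RPKM in labelled-negative libraries (SD, n = 3 each), 6.14-fold lower (log2 fold change -2.23, SE 0.08, limma adjusted p = 1.4e-07), and it passed the test against 1.5-fold (adjusted p = 9.0e-07). These means rest on 571 worked-out reads in labelled-positive and 3946 in the labelled-negative libraries. An antisense transcript, Gm16263, shares 123 bases (2.67%) of the exons and was at 0.0804 RPKM in labelled-positive and 1.53 RPKM in labelled-negative libraries. The use of strand in counting is not given in the sources used here.

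Fgf7 (chromosome 2, 126034658 to 126091185), also known as keratinocyte growth factor, was the ligand gene with the highest level in each library. It had 84.7, 65.3 and 68.2 RPKM in the labelled-positive libraries, against 77.6, 71.8 and 77.1 RPKM in the labelled-negative ones. The groups overlapped, with labelled-positive replicate 1 above all other libraries and replicates 2 and 3 below all of them. The difference did not pass the test (log2 fold change -0.06, 95% interval -0.28 to 0.16, limma adjusted p = 0.61). It depended on 1 library: without labelled-positive replicate 1 the log2 fold change was -0.18 (limma adjusted p = 0.021), and without replicate 2 it was 0.01 (adjusted p = 0.94). With total-read scaling it was -0.26 (adjusted p = 0.042). Because Fgf10 fell, the ratio of Fgf7 to Fgf10 RPKM was 30.0, 30.0 and 27.3 in labelled-positive and 4.79, 4.73 and 5.26 in the labelled-negative libraries (exact two-sided permutation p = 0.1, the smallest that 3 against 3 allows).

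Fgf2 (chromosome 3, 37348346 to 37410108), basic FGF, is a ligand without a classical secretion signal that is widely used to expand mesenchymal cells in culture. It had 23.3, 15.3 and 16.2 RPKM in the labelled-positive libraries, against 30.7, 26.6 and 28.4 RPKM in the labelled-negative ones. The groups did not overlap, and labelled-positive replicate 1 was the closest to the other group. The mean was 18.3 ± 4.34 RPKM in labelled-positive and 28.6 ± 2.09 RPKM in labelled-negative libraries, 1.56-fold lower (log2 fold change -0.64, SE 0.14, limma adjusted p = 0.0053). Without labelled-positive replicate 1 the log2 fold change was -0.82, and only then did Fgf2 pass the test against 1.5-fold (limma adjusted p = 0.035). Nudt6 lies on the opposite strand and shares 640 bases (9.44%) of the Fgf2 exons, but its own level was 0.444 RPKM in labelled-positive and 0.608 RPKM in labelled-negative libraries.

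Fgf18 (chromosome 11, 33117430 to 33147400, minus strand) encodes a ligand of the skeleton that acts on cartilage and bone cells. It had 3.79, 3.55 and 3.81 RPKM in the labelled-positive libraries, against 7.01, 7.51 and 6.70 RPKM in the labelled-negative ones. The groups were well apart and the replicates close to each other, with a coefficient of variation of 3.82% in labelled-positive and 5.82% in the labelled-negative group. It fell 1.90-fold (log2 fold change -0.77, SE 0.06, limma adjusted p = 1.5e-05). Against 1.5-fold it did not pass (adjusted p = 0.073), although it did with total-read scaling and with a pseudocount of 0.1 (adjusted p = 0.0023 and 0.0094). Its level rests on few reads, 219 in labelled-positive and 469 in the labelled-negative libraries.

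Of 14 other secreted FGF ligand genes 6 were listed in the table and 1, Fgf5, passed the filter on low values. Fgf5 (chromosome 5, 98254184 to 98277030), whose protein is known in mice for ending the growth phase of hair, had 8.02, 7.76 and 7.11 RPKM in the labelled-positive libraries, against 0.0859, 0.150 and 0.0859 RPKM in the labelled-negative ones. That is 330, 322 and 295 reads in the labelled-positive libraries, against 4, 7 and 4 in the labelled-negative ones. The mean was 7.63 ± 0.471 RPKM in labelled-positive and 0.107 ± 0.0372 RPKM in labelled-negative libraries, 71.1-fold higher, with a log2 fold change of 2.96 (SE 0.07, limma adjusted p = 1.6e-08). The pseudocount shrinks the log2 value of so low a gene, and with a pseudocount of 0.1 it was 5.23. Fgf5 passed the filter through the labelled-positive group alone, so that a difference was built into its being tested. In the labelled-positive libraries its level was above those of Fgf18 and Fgf10. The remaining 5, Fgf1, Fgf9, Fgf21, Fgf22 and Fgf23, averaged between 0.0260 and 0.466 RPKM in labelled-positive and between 0.204 and 0.565 RPKM in labelled-negative libraries and were not tested. Fgf1, Fgf9 and Fgf23 were lower in the labelled-positive libraries without overlap, at 21, 6 and 10 reads over the labelled-positive and 101, 53 and 28 reads over the labelled-negative libraries. With no filter on low values, limma called these 3 lower (adjusted p = 7.0e-04, 0.0016 and 0.019). The groups of Fgf21, a hormone-like ligand with the highest mean of the 5, and of Fgf22 overlapped.

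The ligand transcripts as a whole were made up differently. Fgf7 was 68.6%, 68.5% and 69.2% of the summed RPKM of all listed secreted ligands in the labelled-positive libraries, against 58.1%, 58.4% and 60.0% in the labelled-negative ones. Fgf2 made up 17.1 ± 1.49% in labelled-positive and 22.2 ± 0.701% in the labelled-negative libraries. The share of Fgf10 was 2.37 ± 0.146% in labelled-positive and 12.0 ± 0.493% in the labelled-negative libraries, and that of Fgf5 was 7.28 ± 0.824% in labelled-positive and 0.0844 ± 0.0327% in labelled-negative libraries. These 4 shares did not overlap between the groups (exact two-sided permutation p = 0.1 for each, the smallest possible). Shares of 1 sum are not independent of each other. The sum itself was 124, 95.3 and 98.6 RPKM in the labelled-positive libraries, against 134, 123 and 128 RPKM in the labelled-negative ones. The sums overlapped, with labelled-positive replicate 1 inside the range of the other group (exact permutation p = 0.2).

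**Figure D3:**
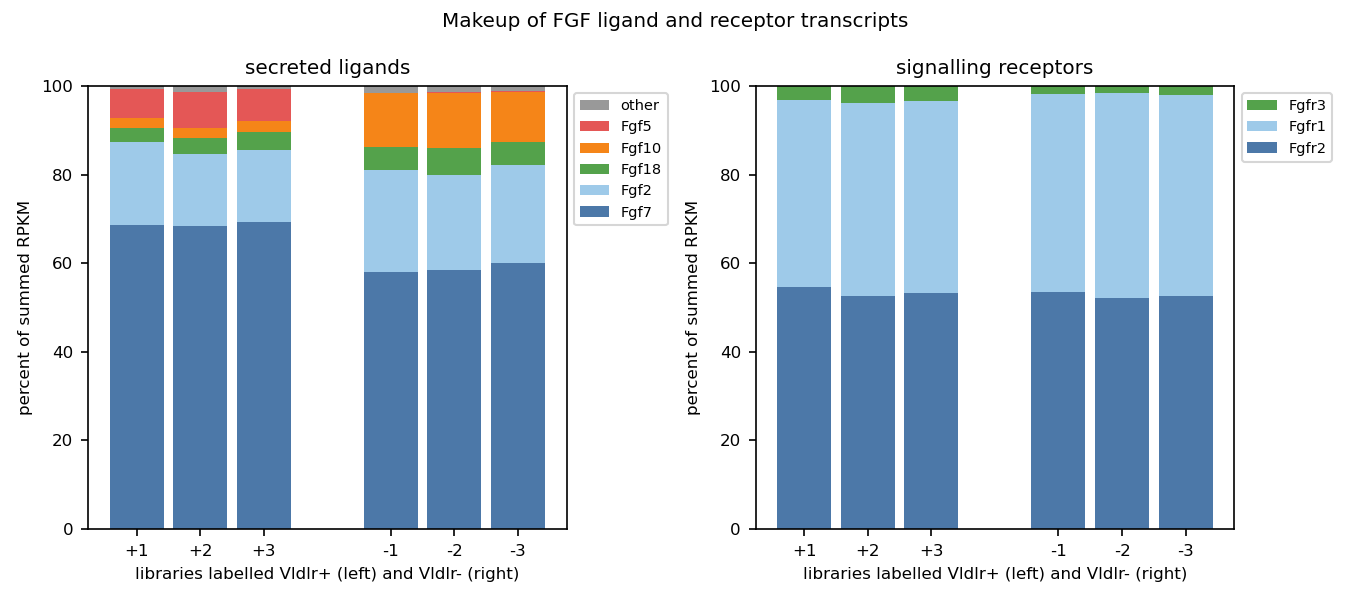
Percent of the summed RPKM (y axis) contributed by each secreted ligand gene (left panel) and each signalling receptor gene (right panel), in the libraries labelled Vldlr+ (left bars, +1 to +3) and Vldlr- (right bars, -1 to -3). The Fgf10 band is narrow and the Fgf5 band present in the labelled-positive bars, while the receptor bars differ little.

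Of the signalling receptor genes, Fgfr1 and Fgfr2 fell by small margins and Fgfr3 rose. Fgfr1 and Fgfr2 encode the tyrosine kinase receptors of most connective tissue cells, and their IIIb and IIIc splice forms, which differ in the ligands they bind, are not separated in a table of genes. Fgfr1 (chromosome 8, 25513654 to 25575718) had 20.8, 22.5 and 22.9 RPKM in the labelled-positive libraries, against 26.0, 27.4 and 25.6 RPKM in the labelled-negative ones. The groups did not overlap, and Fgfr1 fell 1.19-fold (log2 fold change -0.25, SE 0.06, limma adjusted p = 0.0068).

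Fgfr2 (chromosome 7, 130162451 to 133123350, minus strand) had 27.1, 27.2 and 28.0 RPKM in the labelled-positive libraries, against 31.0, 31.0 and 29.6 RPKM in the labelled-negative ones. The gap between the groups was small, but the replicates were tight, with a coefficient of variation of 1.84% in labelled-positive and 2.58% in the labelled-negative group. It fell 1.11-fold (log2 fold change -0.15, SE 0.05, limma adjusted p = 0.030). This call was lost with upper-quartile scaling (adjusted p = 0.087) and when labelled-positive replicate 2 or 3 or labelled-negative replicate 1 or 2 was left out (adjusted p = 0.064 to 0.11). The annotated gene runs into Ctbp2 and shares 314 bases (3.04%) of its exons with that gene.

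Fgfr3 (chromosome 5, 33721674 to 33737068), best known as a brake on cartilage growth, was the 1 gene of the 10 that rose. It had 1.61, 2.00 and 1.73 RPKM in the labelled-positive libraries, against 1.03, 0.998 and 1.19 RPKM in the labelled-negative ones. The groups did not overlap, although the gene was the lowest of the 10 in both. The mean was 1.66-fold higher, with a log2 fold change of 0.42 (SE 0.08, limma adjusted p = 0.0020). Its level rests on 633 reads in labelled-positive and 429 in the labelled-negative libraries, and 13.9% of its exon length is shared with an opposite-strand transcript, G630022F23Rik. In the sum of Fgfr1, Fgfr2 and Fgfr3, Fgfr3 made up 3.47 ± 0.353% in labelled-positive and 1.85 ± 0.219% in the labelled-negative libraries, with no overlap (exact permutation p = 0.1, the smallest possible). Fgfr1 made up 43.0 ± 0.848% in labelled-positive and 45.4 ± 0.641% in labelled-negative libraries, also with no overlap and the same p. The share of Fgfr2 was 53.5 ± 1.08% in labelled-positive and 52.7 ± 0.614% in labelled-negative libraries and overlapped (exact permutation p = 0.4). The summed level was 51.3 ± 1.57 RPKM in labelled-positive and 57.9 ± 1.48 RPKM in labelled-negative libraries, with no overlap.

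Fgfrl1 (chromosome 5, 108692382 to 108706924) encodes a receptor-like protein that binds ligand but has no kinase domain. It had 48.0, 52.3 and 52.8 RPKM in the labelled-positive libraries, against 55.9, 52.6 and 59.3 RPKM in the labelled-negative ones. The groups overlapped by a narrow margin, and the difference did not pass (log2 fold change -0.13, 95% interval -0.28 to 0.02, limma adjusted p = 0.13), although it did with total-read scaling (log2 fold change -0.33, adjusted p = 0.0034). In RPKM Fgfrl1 stood above each kinase receptor gene in every library. That order depends on the merged exon lengths, 2782 bases for Fgfrl1 against 9875 for Fgfr1 and 10328 for Fgfr2. In reads Fgfrl1 was below both, at 7052 in labelled-positive and 8689 in labelled-negative libraries. Fgfr1 had 10821 reads in labelled-positive and 14527 in labelled-negative libraries, and Fgfr2 had 14070 and 17622. The ratio of Fgfr1 to Fgfrl1 RPKM was 0.432 ± 0.00240 in labelled-positive and 0.473 ± 0.0449 in the labelled-negative libraries and overlapped (exact permutation p = 0.3).

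Spry2 and Spry4 encode Sprouty proteins, which FGF and other growth factors induce and which hold back signalling between the receptor and ERK. Both were lower in the labelled-positive cells. The promoter window of Spry2 is shown because this gene and Fgf10 were those that passed the test against 1.5-fold. It lies at chr14:105896770-105897069 (minus strand, GRCm38.p6, RefSeq), with motifs marked as above.
Spry2: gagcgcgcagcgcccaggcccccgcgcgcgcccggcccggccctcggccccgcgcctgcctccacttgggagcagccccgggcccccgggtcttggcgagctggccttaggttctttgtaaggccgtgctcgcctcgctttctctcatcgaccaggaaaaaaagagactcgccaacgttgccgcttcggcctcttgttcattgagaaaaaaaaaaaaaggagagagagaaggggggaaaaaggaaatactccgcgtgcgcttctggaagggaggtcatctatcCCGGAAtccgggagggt
It held an ETS motif 33 bases after the start and no other of the 5 motifs, and 62.7% of its bases were G or C. Spry2 (chromosome 14, 105891947 to 105896819) had 12.1, 11.2 and 10.7 RPKM in the labelled-positive libraries, against 21.2, 21.8 and 19.7 RPKM in the labelled-negative ones. The groups were well apart. The mean was 11.3 ± 0.709 RPKM in labelled-positive and 20.9 ± 1.08 RPKM in labelled-negative libraries, 1.85-fold lower (log2 fold change -0.83, SE 0.06, limma adjusted p = 1.2e-05). Against 1.5-fold the adjusted p was 0.025, and that call was lost when labelled-positive replicate 2 or 3 or labelled-negative replicate 1 or 2 was left out (adjusted p = 0.083 to 0.12).

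Spry4 (chromosome 18, 38586247 to 38601415, minus strand) had 3.00, 2.55 and 2.34 RPKM in the labelled-positive libraries, against 5.16, 4.51 and 4.70 RPKM in the labelled-negative ones. The groups did not overlap. It fell 1.82-fold (log2 fold change -0.67, SE 0.08, limma adjusted p = 2.2e-04) and did not pass the test against 1.5-fold (limma adjusted p = 1), nor under any alternative in which it was tested (adjusted p = 0.077 to 1). The pseudocount shrinks the log2 value of so low a gene, and with a pseudocount of 0.1 that limma adjusted p was 0.15.

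In the order of RPKM within the labelled-positive group, Fgf7 came first, followed by Fgfrl1, Fgfr2, Fgfr1, Fgf2, Spry2, Fgf18, Spry4, Fgf10 and Fgfr3. The ranges of Fgfr1 and Fgf2 overlapped there, as did those of Spry4 and Fgf10. In the labelled-negative group Fgf2 stood before Fgfr1 and Fgf10 before Fgf18 and Spry4, and the range of Fgf2 overlapped those of Fgfr2 and Fgfr1. Ranges of all other neighbours were separate. Spread between replicates was largest for Fgf2 in the labelled-positive group, with a coefficient of variation of 23.8%, against 7.31% in the labelled-negative group.

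The rest of the feedback system was described with a list of 13 other genes, of which 12 were tested. Its members are known as inhibitors of the pathway, except Flrt2 and Flrt3, whose proteins bind FGF receptors and of which FLRT3 is known in Xenopus to promote ERK signalling. Of the 12, 10 fell, 1 rose and 1 did not pass, with a median log2 fold change of -0.51, against 0.02 for all genes tested. Among all genes tested, 26.1% were called lower and 29.7% higher. This list too was chosen with earlier results of these data known. Without Flrt2 and Flrt3, a change made with the values in view, 8 of 10 inhibitor genes fell, 1 rose and 1 did not pass, with a median of -0.44. Spry1, the third Sprouty gene in the table, had 2.82, 2.43 and 2.78 RPKM in the labelled-positive libraries, against 5.36, 4.79 and 5.65 RPKM in the labelled-negative ones, and fell 1.97-fold (limma adjusted p = 5.9e-05). Flrt3 was 2.68-fold lower at 2.37 ± 0.306 RPKM in labelled-positive and 6.35 ± 0.315 RPKM in labelled-negative libraries (adjusted p = 6.6e-06). Spred2, a Sprouty-related inhibitor of Ras-ERK signalling, was 1.54-fold lower at 5.63 ± 0.0347 RPKM in labelled-positive and 8.66 ± 0.586 RPKM in labelled-negative libraries (adjusted p = 1.3e-04). The 1 that rose was Dusp5, a nuclear ERK phosphatase, with 7.23, 6.85 and 6.82 RPKM in the labelled-positive libraries, against 2.71, 2.69 and 3.11 RPKM in the labelled-negative ones (2.45-fold higher, adjusted p = 3.0e-06). Dusp5 and Flrt3 passed the test against 1.5-fold, which 4.43% of all genes tested passed as higher and 5.00% as lower. The remaining 7 that fell are named with their values in view, and are Spred1, Spred3, Il17rd, Dusp4, Dusp6, Dusp7 and Flrt2. Among them Dusp6, a cytoplasmic ERK phosphatase induced by FGF, was at 3.94 ± 0.377 RPKM in labelled-positive and 6.46 ± 0.402 RPKM in labelled-negative libraries (adjusted p = 2.5e-04). The number that fell was 8 to 10 with other scalings, tests and pseudocount and with a library left out. It was 10 with total-read scaling, against 5546 of all 12153 genes tested. With a filter at 5 RPKM, which tests fewer genes, it was 6.

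**Figure D4:**
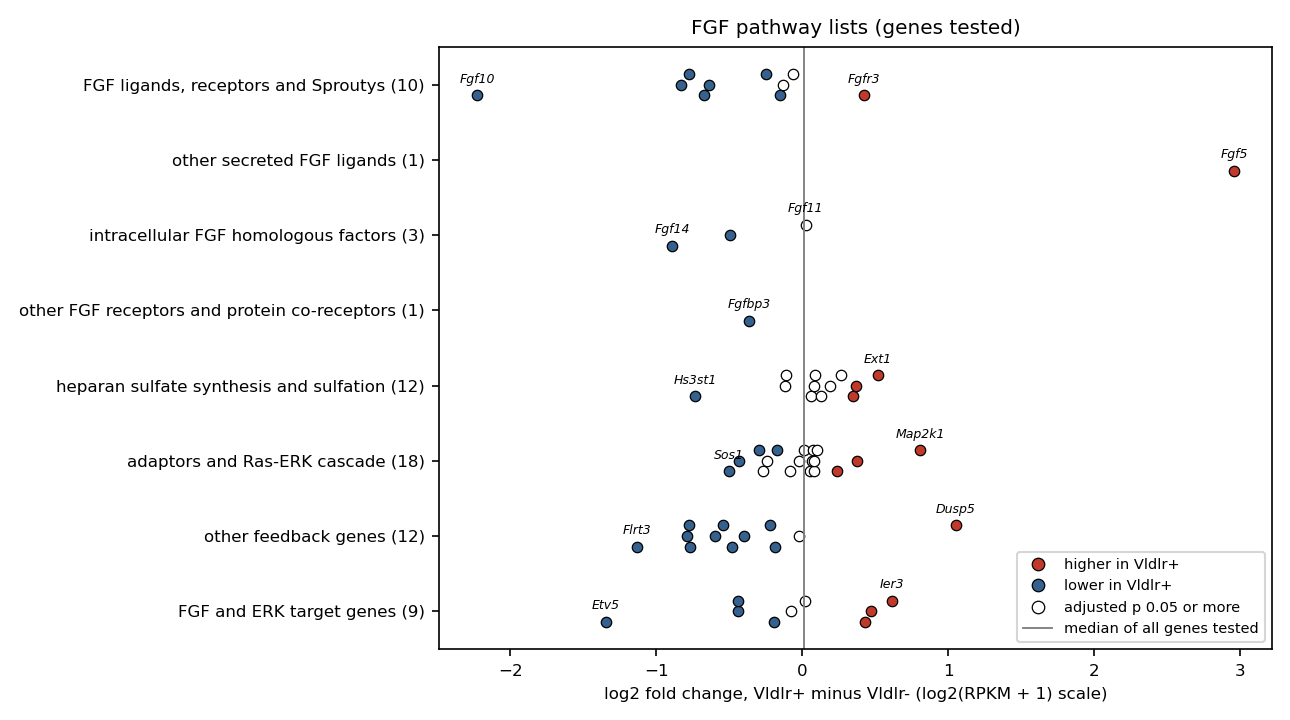
The log2 fold change (x axis, labelled-positive minus labelled-negative) of every tested gene in 8 lists of FGF pathway genes, with the number tested in brackets and the extreme genes named. Red and blue points passed the test, higher or lower, white points did not. The feedback list lies mostly left of the grey line at 0.02, the median of all genes tested, and the adaptor and heparan sulfate lists lie around it.

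Genes that FGF and ERK signals are known to induce did not move as a block. Of 9 tested, 4 fell, 3 rose and 2 did not pass, with a median log2 fold change of -0.08. Of all genes tested, 26.1% fell and 29.7% rose, with a median of 0.02. Etv5, an ETS factor that is a common readout of FGF signalling, had 5.08, 4.73 and 5.34 RPKM in the labelled-positive libraries, against 13.8, 16.0 and 13.4 RPKM in the labelled-negative ones, and fell 2.85-fold (log2 fold change -1.34, limma adjusted p = 2.1e-06). Ccnd1, the G1 cyclin, was at 98.3 ± 0.917 RPKM in labelled-positive and 134 ± 2.01 RPKM in labelled-negative libraries (adjusted p = 1.3e-04). Ier3, an early response gene, rose to 54.8 ± 2.69 RPKM in the labelled-positive libraries, against 35.3 ± 0.680 RPKM in the labelled-negative ones (adjusted p = 3.2e-05). Myc was at 10.6 ± 0.271 RPKM in labelled-positive and 7.57 ± 0.207 RPKM in labelled-negative libraries (adjusted p = 1.8e-04).

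Of the 18 adaptor and Ras-ERK cascade genes 4 fell, 3 rose and 11 did not pass, with a median log2 fold change of 0.03. Shares over all genes tested were 26.1% lower and 29.7% higher. Map2k1, the kinase that activates ERK, had 38.9, 41.5 and 38.8 RPKM in the labelled-positive libraries, against 21.8, 23.3 and 21.8 RPKM in the labelled-negative ones (1.78-fold higher, limma adjusted p = 5.7e-06). The ERK1 gene Mapk3 was at 79.5 ± 7.82 RPKM in labelled-positive and 60.8 ± 2.37 RPKM in labelled-negative libraries (adjusted p = 0.0041), a call lost with total-read scaling (adjusted p = 0.086). Frs2, the receptor adaptor, fell to 8.71 ± 0.831 RPKM in the labelled-positive libraries, against 12.0 ± 0.267 RPKM in the labelled-negative ones (adjusted p = 0.0011). Sos1, which loads Ras with GTP, was at 3.60 ± 0.565 RPKM in labelled-positive and 5.49 ± 0.282 RPKM in labelled-negative libraries (adjusted p = 0.0020). With total-read scaling 9 of this list were lower and 1 higher, against 5546 and 1875 of all 12153 genes tested.

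Heparan sulfate genes mostly did not pass: of 12 tested 3 rose, 1 fell and 8 were not called. Over all genes tested 29.7% rose and 26.1% fell. The chain polymerase genes Ext1 and Ext2 rose to 30.1 ± 0.911 and 23.9 ± 0.684 RPKM in the labelled-positive libraries, against 20.7 ± 0.220 and 18.6 ± 0.148 RPKM in the labelled-negative ones (limma adjusted p = 4.2e-05 and 4.3e-04). Glce, an epimerase of the chain, was 1.33-fold higher (adjusted p = 0.0026). Hs3st1, a sulfotransferase, was at 1.14 ± 0.213 RPKM in labelled-positive and 2.54 ± 0.241 RPKM in labelled-negative libraries (adjusted p = 2.3e-04). Upper-quartile scaling called 5 of this list higher, against 3822 of all 12112 genes tested. Total-read scaling called 3 lower, against 5546 of all 12153 genes tested.

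Among intracellular FGF homologous factors, which resemble FGFs but are not secreted and bind sodium channels, 2 of 3 tested fell. That count rests on few genes, and 26.1% of all genes tested fell. Fgf13 was at 7.23 ± 0.537 RPKM in labelled-positive and 10.6 ± 0.282 RPKM in labelled-negative libraries (limma adjusted p = 2.8e-04), and Fgf14 at 1.25 ± 0.500 RPKM in labelled-positive and 3.13 ± 0.381 RPKM in labelled-negative libraries (adjusted p = 0.0012). Of 5 other receptor and co-receptor genes, Fgfbp3, a ligand carrier, was the 1 tested and was at 1.39 ± 0.182 RPKM in labelled-positive and 2.06 ± 0.0529 RPKM in labelled-negative libraries (adjusted p = 0.0037). Kl, a co-receptor of hormone-like FGFs, was at 0.0886 RPKM in labelled-positive and 0.0748 RPKM in labelled-negative libraries and was not tested. The remaining 3, Fgfr4, Fgfbp1 and the other Klotho gene Klb, were not listed in the table.

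The 3 genes of the 10 with the largest log2 fold changes were each set against 6763 genes with a mean of at least 5 RPKM for likeness of pattern, by Pearson's r of log2(RPKM + 1) over the 6 libraries. The nearest to Fgf10 were Tfpi, Dkk2 and Thbd (r = 0.99984, 0.99979 and 0.99957). Nearest to Spry2 were Ildr2, Fzd7 and Cdh11 (r = 0.99899, 0.99894 and 0.99889), and nearest to Fgf18 were Cachd1, Etv5 and Cspg4 (r = 0.99946, 0.99928 and 0.99886). With 6 libraries in 2 groups such values mostly follow the split between the groups. All 9 genes were lower in the labelled-positive libraries, which follows from how they were chosen. Dkk2, which encodes a secreted Wnt inhibitor, had 8.11, 6.42 and 7.01 RPKM in the labelled-positive libraries, against 80.5, 74.8 and 71.1 RPKM in the labelled-negative ones.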

How the data were processed

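RNA libraries of 6 samples, 3 labelled Vldlr-positive and 3 Vldlr-negative, were made with a SMARTER kit, per the labels' protocols. The deposited table, made by the authors, names no unit. It was read as RPKM from its values: the deposited RPKM times GENCODE M21 merged exon length gave whole reads (tolerance 0.01) for 15690 of 15691 genes with a length. Per the submitters' processing notes the genome was mm10, and bcl2fastq 1.8.4 and Cell Ranger were named. The sources used here give neither aligner nor counter nor strand use, so reads shared with overlapping genes are uncertain.

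Genes with at least 1 RPKM in at least 3 libraries were tested with limma 3.58.1 (R 4.3.3, trend and robust) on log2(RPKM + 1), which understates changes of low genes. Folds are ratios of mean RPKM, and errors are SDs over 3 libraries. Tests against 1.5-fold used limma's treat. The method was tested on simulated data, in which no library was made to stand apart as labelled-positive replicate 1 does here. The members and lists were chosen with earlier results of these data known. Named genes were the 10 members, 4 or fewer called genes of each pathway list by adjusted p (where under 2 were called, the 2 with the highest means), and the 2 markers of each list with the highest means, with exceptions marked. Taking Flrt2 and Flrt3 out of the feedback list was chosen after seeing the data. RefSeq promoter windows were read for 8 of the 10 genes. Alternatives were 3 other scalings, a pseudocount of 0.1, no filter or one of 5 RPKM, limma voom on worked-out reads, the replicate number as a block, and leaving out each library.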

Additional observations from a re-analysis of the deposited data

How the results depend on the processing

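Over 138 recomputed values of the 10 genes, 129 kept their direction and their side of the threshold. The log2 fold change of Fgf7 was -0.18 to 0.01 with a library left out, and 0.011, without labelled-positive replicate 2, was the 1 reversal. The cause was not tested. The number of the 10 genes called higher in limma was 1, except 0 with a filter at 5 RPKM, under which Fgfr3 was not tested. The number lower ranged from 6 to 9. Those passing the test against 1.5-fold ranged from 1 to 3 with a library left out. Of all genes, 1875 were higher and 5546 lower with total-read scaling, and 1800 lower with the 5 RPKM filter, which tests fewer genes. Leaving out a library gave 2882 to 4127 higher and 2425 to 3828 lower. The difference in the share of Fgfr1 among the receptors was -2.74 to -1.94 percentage points with a library left out. Same-numbered libraries did not deviate together in every pair (r = 0.303, -0.0611 and 0.307), so the numbers were not taken as pairs. With the replicate block 3738 genes were higher and 3315 lower, and 1 and 7 of the 10, as without it. The planned edgeR and DESeq2 fits on worked-out reads are not reported here, since the table holds RPKM. Few reads limit Fgf18 and the untested ligands.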
